A study of Mus musculus with 6 samples.

Results

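The genes of sterol and fatty acid synthesis, of the sensing system that controls them and of cholesterol efflux were followed in cultured mouse endothelial cells derived from brain. Endothelial cells form the inner lining of vessels. The 35 genes were a list of symbols chosen for their roles, with earlier results of these data known. Shares and medians set beside those of all genes therefore describe the list and do not test it. Each had a row among the 24421 genes of the count table, and all 35 had enough reads to be tested. They comprised 17 enzymes of cholesterol synthesis, 6 genes of sterol sensing and transport, 7 genes of fatty acid synthesis and desaturation, and 5 genes of the liver X receptors (LXR) and their efflux targets.

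Cells of genotype Fli-1 knockout were set against cells of genotype WT. Both were brain-derived, cultured in medium with fetal bovine serum and kept for 6 days in co-culture with a vascular niche after deletion of Fli-1 was induced with 4-OHT (4-hydroxytamoxifen). The 4-OHT step was listed for the WT samples too. The labels give no strain, age, sex, recombinase or driver of recombination, and leave unstated whether the 3 libraries per group stand for different animals or separately grown cells. Hence the p-values measure the spread between these libraries, which may be technical. Endothelial cells were recovered by fluorescence-activated sorting, and polyadenylated RNA was sequenced in 3 libraries per group.

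Cholesterol is built from acetyl-CoA through the mevalonate pathway. The transcription factors SREBP1 (gene Srebf1) and SREBP2 (gene Srebf2) are held in the endoplasmic reticulum by SCAP and the INSIG proteins when sterols are plentiful. When sterols are scarce they are cut free and turn on the synthesis genes, SREBP2 mainly those for cholesterol and SREBP1 mainly those for fatty acids. For cholesterol, LXR acts in the other direction. It is activated by oxysterols and turns on the exporters Abca1 and Abcg1. It also turns on Mylip, a ligase that marks lipoprotein receptors for degradation. The contrast is drawn for cholesterol only, not for fatty acid synthesis.

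Promoters of 6 of these genes are shown. Srebf2, Insig1, Fasn and Abca1 are genes that the paired test called, Hmgcs1 holds the letters of an SREBP site, and Nr1h2 holds those of ETS factors, the family of Fli1. Each run is the 250 bases before the RefSeq gene start (GRCm38.p6), read 5′ to 3′ on the gene's strand. Capitals mark matches on either strand to TCACNCCAC (a site of SREBP), CCAAT (bound by NF-Y, which acts beside SREBP), CACGTG (the E-box), a pair of GGTNA separated by 5 bases of any kind (the LXR direct repeat) or CCGGAAGT (an ETS site). N is any base, and matches may overlap.
Srebf2, chr15:82147019-82147268, plus strand: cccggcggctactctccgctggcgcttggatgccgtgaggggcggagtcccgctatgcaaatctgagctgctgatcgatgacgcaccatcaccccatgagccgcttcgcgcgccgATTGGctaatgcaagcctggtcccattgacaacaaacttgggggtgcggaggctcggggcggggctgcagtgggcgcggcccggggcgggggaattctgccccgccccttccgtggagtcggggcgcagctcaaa
Insig1, chr5:28071162-28071411, plus strand: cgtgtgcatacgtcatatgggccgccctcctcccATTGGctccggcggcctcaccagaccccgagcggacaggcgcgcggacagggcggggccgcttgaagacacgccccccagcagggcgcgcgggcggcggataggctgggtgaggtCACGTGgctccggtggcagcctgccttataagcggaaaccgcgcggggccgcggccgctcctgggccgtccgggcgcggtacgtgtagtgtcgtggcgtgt
Fasn, chr11:120824548-120824797, minus strand: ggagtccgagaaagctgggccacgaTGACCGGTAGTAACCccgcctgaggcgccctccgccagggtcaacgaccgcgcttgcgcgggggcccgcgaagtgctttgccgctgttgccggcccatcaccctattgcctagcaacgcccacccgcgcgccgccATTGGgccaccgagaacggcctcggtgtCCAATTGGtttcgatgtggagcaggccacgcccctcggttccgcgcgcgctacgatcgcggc
Hmgcs1, chr13:119690101-119690350, plus strand: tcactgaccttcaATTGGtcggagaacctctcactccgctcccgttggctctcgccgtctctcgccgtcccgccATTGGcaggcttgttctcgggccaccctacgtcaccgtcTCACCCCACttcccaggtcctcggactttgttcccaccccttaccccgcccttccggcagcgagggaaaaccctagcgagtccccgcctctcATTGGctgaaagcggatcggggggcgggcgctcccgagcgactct
Abca1, chr4:53159896-53160145, minus strand: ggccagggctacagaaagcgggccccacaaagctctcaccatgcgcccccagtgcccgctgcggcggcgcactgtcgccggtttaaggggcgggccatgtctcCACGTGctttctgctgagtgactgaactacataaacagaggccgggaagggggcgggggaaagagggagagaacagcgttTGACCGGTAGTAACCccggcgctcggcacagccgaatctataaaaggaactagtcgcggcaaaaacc
Nr1h2, chr7:44553966-44554215, minus strand: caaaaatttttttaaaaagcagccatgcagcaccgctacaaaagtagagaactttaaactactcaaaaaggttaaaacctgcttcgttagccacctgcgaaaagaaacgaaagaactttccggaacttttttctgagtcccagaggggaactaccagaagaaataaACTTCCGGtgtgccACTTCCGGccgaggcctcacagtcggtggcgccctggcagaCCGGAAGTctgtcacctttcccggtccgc

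RefSeq windows were matched for 27 of the 35 genes, with 36 windows in all. Fdps, Fdft1, Sqle, Stard4, Scd1, Scd2, Fads1 and Abcg1 were not matched. The letters CCAAT lay in 20 of the 36 windows (55.6%), against 33.8% of all 32851 promoter windows, and the E-box in 6 (16.7%), against 6.02%. The SREBP letters lay in the Hmgcs1 window alone (2.78% of the 36), 137 bases before the start, against 1.05% of all windows. Only these exact letters were searched, so a window without them may hold a variant. That of Srebf2 holds a run that differs from them in the last letter only. The LXR repeat lay in 3 windows (8.33%), those of Abca1, Fasn and 1 of the Srebf1 starts, against 0.621% of all windows. Abca1 and Fasn held the same 15 letters, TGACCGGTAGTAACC, which begin 67 bases before the start of Abca1 and 225 bases before that of Fasn. The ETS letters lay in 2 windows (5.56%), against 2.88% of all windows: 3 times in that of Nr1h2 and once in a window of Insig2. A match is a run of letters and not a measured binding site.

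Total counts ranged from 17550185 to 21385951 per library, and a member had between 38 reads (Nr1h3) and 5461 reads (Fasn) in a single library. The targeted gene went against the labels: Fli1 had 76.8, 111 and 77.4 CPM (reads scaled to library size, with TMM factors) in knockout-labelled libraries, against 45.3, 59.6 and 45.8 CPM in wild-type-labelled libraries. The labels do not name the deleted exons, so this count per gene does not check the deletion, and every direction below is that of the libraries labelled knockout relative to those labelled wild-type. Endothelial markers were abundant in all 6 libraries, Cdh5 at 4432 to 5153 CPM in those labelled knockout and 4458 to 4848 CPM in wild-type-labelled libraries. Among brain endothelial markers, Slc2a1 and Cldn5 were present, whereas Mfsd2a and Slco1c1 were at most 0.481 CPM in any library.

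Whether the knockout label went with a different sterol and lipid programme was asked in 2 fits. In the comparison of the groups alone, edgeR's quasi-likelihood test called 0 of the 35 members higher and 0 lower after Benjamini-Hochberg adjustment, against 0% and 0.00784% of the 12753 genes tested. The smallest adjusted p of a member was 0.625, for Srebf2, while 7 members (20.0%) had an unadjusted p under 0.05, against 4.79% of all genes. DESeq2 without the block called 1 member, Srebf2, at an adjusted p of 0.0112. Libraries with the same replicate number varied together, so the test was repeated with that number as a blocking term, which is the paired test below. It called 9 of the 35 members, against 8.81% of all genes: 7 were higher (20.0%, against 4.81% of all genes) and 2 were lower (5.71%, against 4.01%). The other 26 did not pass. On a single simulated data set the blocked edgeR test made more false calls than the nominal rate, so the calls and adjusted p values of the paired test may be too lenient. The groups did not overlap for 5 members that were higher (14.3%, against 5.25% of all genes) and 1 that was lower (1 of 35, against 4.96% of all genes). All 3 pairs pointed up for 14 members (40.0%, against 20.5% of all genes) and down for 3 (of 35, against 20.2% of all genes).

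By class, the paired test gave these counts, to be read against 4.81% of all genes higher and 4.01% lower. Of the 17 cholesterol enzymes, 1 rose (5.88%, near the share of all genes) and 0 fell. Of the 6 genes of sterol sensing, 2 rose and 0 fell, and of the 7 fatty acid genes, 4 rose and 0 fell. Of the 5 LXR and efflux genes, 0 rose and 2 fell. The changes were small: the 7 rises lay between 1.1-fold (Fasn) and 1.33-fold (Elovl6), and no member passed a test against a minimum of 1.5-fold. Without pair 2, whose libraries held the most fibroblast transcripts, the counts were 0 of 17, 2 of 6 and 3 of 7 higher, and 1 of 5 lower. Among all genes that fit called 339 higher and 205 lower, against 613 and 511 with every pair, so the shares above do not apply to it. With DESeq2 and the same block, Srebf2 and Insig1 passed and the other 7 called members did not. Among all genes DESeq2 then called 262 higher and 111 lower.

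**Figure D1:**
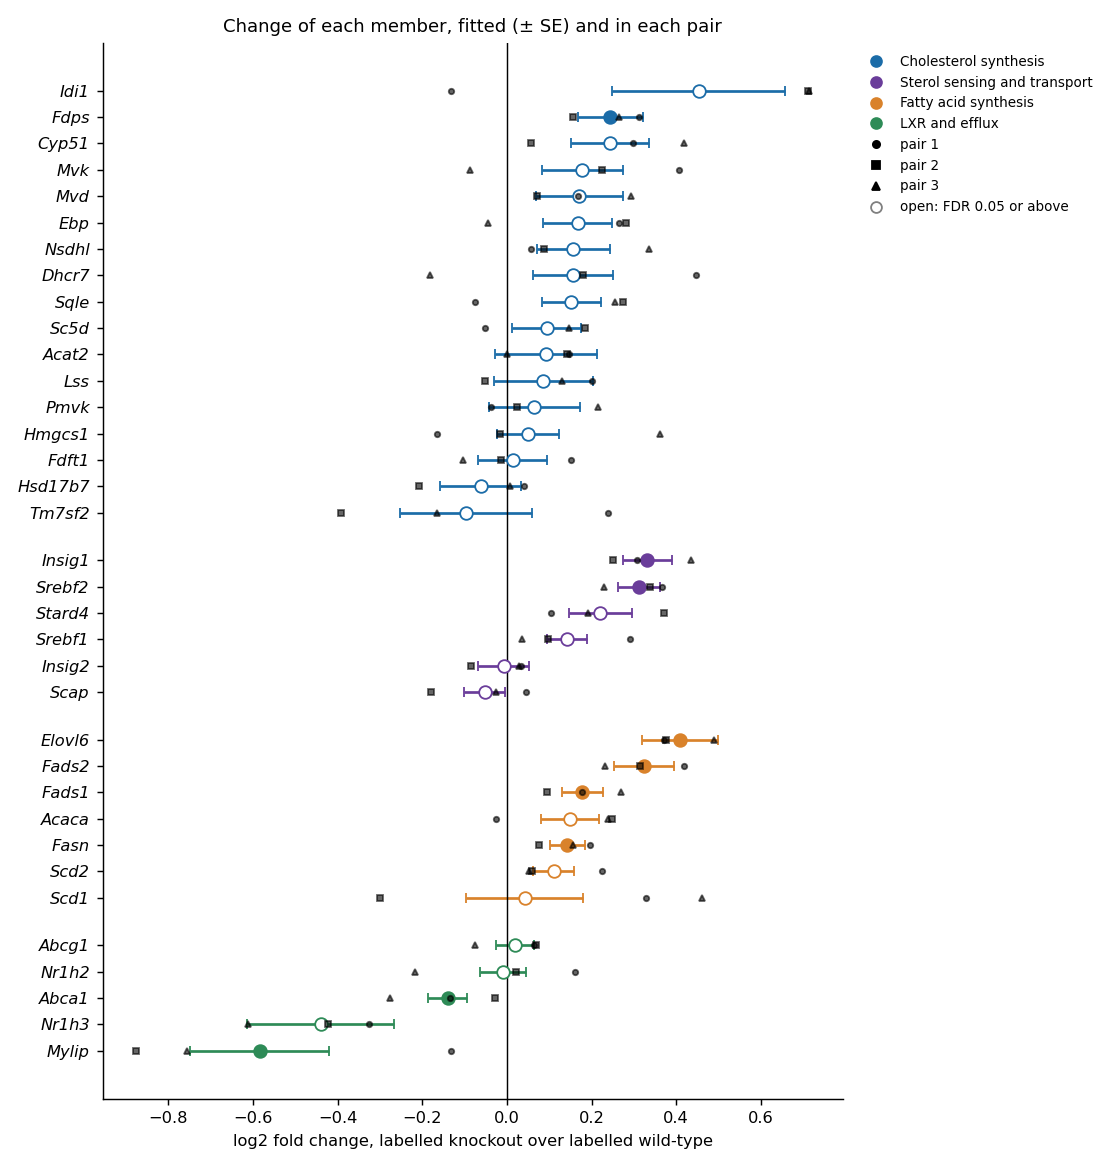
Change of each member on the log2 scale, labelled knockout over labelled wild-type, ordered within its class. Large circles with bars are the paired fit ± SE, filled where the adjusted p was under 0.05, and small black marks are the 3 same-numbered pairs. All 7 fatty acid genes have a fitted value above 0, and 4 of the 5 LXR and efflux genes have one below 0.

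Median log2 fold changes by class were 0.15 for the cholesterol enzymes, 0.18 for sterol sensing and transport, 0.15 for fatty acid synthesis and -0.14 for LXR and efflux, against -0.0033 for all genes tested. In pairs 1, 2 and 3 the medians of the cholesterol enzymes were 0.15, 0.087 and 0.15, and those of the fatty acid genes 0.22, 0.095 and 0.24. The LXR and efflux medians were -0.13, -0.028 and -0.28. Each class thus kept its sign in all 3 pairs, and pair 2 gave the value nearest 0 in 3 of the 4 classes. In the plot of class medians the LXR and efflux genes are the one class of the 4 below the zero line. Without pair 3 the LXR and efflux median was -0.079, and without pair 2 it was -0.20. The difference between the classes was not tested.

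**Figure D2:**
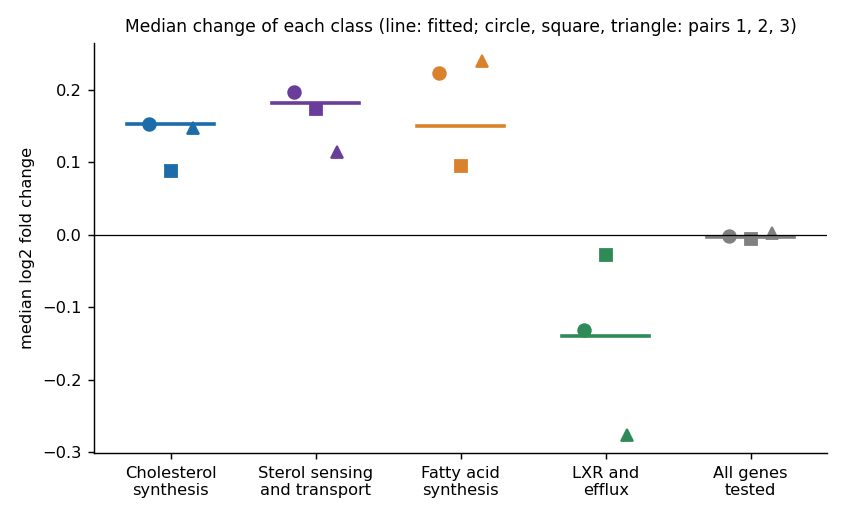
Median log2 fold change of each class, labelled knockout over labelled wild-type. The horizontal line is the median of the paired fit, and the circle, square and triangle are the medians within pairs 1, 2 and 3; the LXR and efflux class lies at -0.14 and the other 3 classes between 0.15 and 0.18, with all genes tested near 0.

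Srebf2, which encodes the main activator of the cholesterol enzymes, had the smallest p of the 35 genes. It lies on GRCm38 chromosome 15, 82147181 to 82205379, plus strand. Its level was 90.0, 90.7 and 88.0 CPM in knockout-labelled libraries, against 69.8, 71.8 and 75.0 CPM in wild-type-labelled libraries. The groups did not overlap, and the replicates of each group lay close together, with means of 89.5 ± 1.41 and 72.2 ± 2.62 CPM (SD, n = 3 each). The log2 fold change was 0.31 ± 0.049 (SE), or 1.24-fold, with an adjusted p of 9.13e-06 in edgeR's paired test.

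Insig1, which retains SCAP in the endoplasmic reticulum and is itself switched on by SREBP, moved with Srebf2. It lies on chromosome 5, 28071363 to 28078662, plus strand. It had 47.7, 45.1 and 52.4 CPM in knockout-labelled libraries, against 38.5, 37.9 and 38.7 CPM in wild-type-labelled libraries. Every library labelled knockout lay above every library labelled wild-type, and the log2 fold change was 0.33 ± 0.058 (SE, adjusted p = 5.99e-05, edgeR). Its promoter above holds a CCAAT box and an E-box. Insig2, its paralogue, which is not under the same SREBP control, had 37.8, 34.9 and 37.0 CPM in knockout-labelled libraries and 36.9, 37.1 and 36.3 CPM in wild-type-labelled libraries, a log2 change of -0.0077 ± 0.061 (SE). The difference between the paralogues was not tested.

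The remaining genes of this class did not pass. Srebf1 had 118, 105 and 115 CPM in knockout-labelled libraries, against 96.1, 97.9 and 112 CPM in wild-type-labelled libraries. It was higher in 3 of 3 pairs, but the groups overlapped, and its log2 fold change of 0.14 ± 0.048 (SE) had an adjusted p of 0.0557 (edgeR, paired). Stard4, a carrier of cholesterol between membranes and a target of SREBP2, had 25.0, 27.6 and 25.5 CPM in knockout-labelled libraries, against 23.3, 21.4 and 22.3 CPM in wild-type-labelled libraries. The groups did not overlap, and its log2 fold change of 0.22 ± 0.074 (SE) lay at the threshold, with an adjusted p of 0.0508. With DESeq2's size factors in edgeR, Stard4 passed at 0.0470. Scap, the escort of the SREBPs, had 95.1, 84.1 and 90.5 CPM in knockout-labelled libraries and 92.2, 95.3 and 92.2 CPM in wild-type-labelled libraries, with a log2 change of -0.053 ± 0.049 (SE, adjusted p = 0.602).

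Of the cholesterol enzymes, 1 of 17 passed. The fitted change was above 0 for 15 of the 17, against 6239 of all 12753 genes, and 5 of 17 (29.4%) were higher in all 3 pairs, against 20.5% of all genes. Fdps, which makes farnesyl pyrophosphate at the branch between sterols and prenylated proteins, was the enzyme that passed. It had 21.2, 21.9 and 24.2 CPM in knockout-labelled libraries, against 17.1, 19.7 and 20.1 CPM in wild-type-labelled libraries. The groups did not overlap, and the log2 fold change was 0.24 ± 0.077 (SE, adjusted p = 0.0374, edgeR, paired). The call did not hold when any 1 pair was left out, with adjusted p values of 0.0918 to 0.173, or with library size as the only scaling. Of the exonic bases of Fdps (chromosome 3, 89093588 to 89101959, minus strand), 26.7% are shared with the annotated gene Gm43738, which has no row in the count table.

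The next 3 enzymes by p were Cyp51, Idi1 and Sqle. Cyp51, the lanosterol demethylase, had 12.8, 19.03 and 15.8 CPM in knockout-labelled libraries, against 10.5, 18.3 and 11.8 CPM in wild-type-labelled libraries. It was higher in 3 of 3 pairs, but its levels varied more with the replicate number than with the label, and the log2 change was 0.24 ± 0.092 (SE, adjusted p = 0.0990). Idi1, the isomerase that makes dimethylallyl pyrophosphate, had 2.05, 3.42 and 3.77 CPM in knockout-labelled libraries, against 2.24, 2.09 and 2.29 CPM in wild-type-labelled libraries. Library 1 labelled knockout lay below all 3 libraries labelled wild-type and the other two lay above them, and the fitted log2 fold change was 0.45 ± 0.20 (SE, adjusted p = 0.188). Sqle, squalene epoxidase, had 27.5, 37.5 and 31.2 CPM in knockout-labelled libraries, against 29.0, 31.0 and 26.2 CPM in wild-type-labelled libraries. The groups overlapped, and the log2 fold change was 0.15 ± 0.070 (SE, adjusted p = 0.196).

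Hmgcs1, the synthase at the entry to the mevalonate pathway and the gene with the SREBP letters in its promoter window, showed no consistent direction. It had 39.6, 47.7 and 43.0 CPM in knockout-labelled libraries, against 44.4, 48.2 and 33.5 CPM in wild-type-labelled libraries. It was lower in pairs 1 and 2 and higher in pair 3, and the log2 change was 0.049 ± 0.073 (SE, adjusted p = 0.779). The other 12 enzymes had log2 fold changes from -0.097 for Tm7sf2, a sterol reductase, to 0.18 for Mvk, mevalonate kinase. Hsd17b7 was the other enzyme with a fitted value below 0, at -0.062, and turned above 0 without pair 2, as Tm7sf2 did. Fdft1, squalene synthase, shares 18.3% of its exonic bases with Ctsb on the opposite strand and Tm7sf2 shares 12.1% with Vps51 on the same strand. Reads from bases shared on the same strand are ambiguous, and those shared with the opposite strand cannot be told apart without the strand setting, which is not given. Acat2 and Idi1 also have close paralogues that could share reads.

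Of the fatty acid genes, 4 of 7 passed in the paired test, all higher, and 0 of 7 passed with DESeq2 and the same block. Elovl6, which elongates saturated fatty acids, had 15.1, 17.8 and 16.4 CPM in knockout-labelled libraries, against 11.7, 13.7 and 11.7 CPM in wild-type-labelled libraries. The groups did not overlap, and the log2 fold change was 0.41 ± 0.090 (SE), or 1.33-fold, with an adjusted p of 0.00138 in edgeR's paired test. Fads2, the desaturase that opens the route to long polyunsaturated fatty acids, had 27.3, 32.0 and 25.2 CPM in knockout-labelled libraries, against 20.4, 25.7 and 21.5 CPM in wild-type-labelled libraries. One library of each group overlapped, but the gene was higher in 3 of 3 pairs, with a log2 change of 0.32 ± 0.071 (SE, adjusted p = 0.00147).

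Fads1, the desaturase of the later step and the neighbour of Fads2 on chromosome 19, had 83.0, 90.6 and 82.5 CPM in knockout-labelled libraries, against 73.4, 84.8 and 68.4 CPM in wild-type-labelled libraries. It was higher in 3 of 3 pairs, and the highest library labelled wild-type lay within the range of those labelled knockout. The log2 fold change was 0.18 ± 0.049 (SE, adjusted p = 0.0140), and it did not pass without pair 3 (adjusted p = 0.149). Fasn, fatty acid synthase, had 259.9, 242 and 308 CPM in knockout-labelled libraries, against 227, 230.0 and 277 CPM in wild-type-labelled libraries. Its pairs all pointed up by small steps, with a log2 change of 0.14 ± 0.041 (SE, adjusted p = 0.0209). The Fasn call did not hold when any 1 pair was left out, with adjusted p values of 0.0760 to 0.106, or with library size as the only scaling.

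The other 3 fatty acid genes did not pass. Acaca, acetyl-CoA carboxylase, had 30.8, 29.2 and 35.3 CPM in knockout-labelled libraries, against 31.4, 24.6 and 29.9 CPM in wild-type-labelled libraries, a log2 change of 0.15 ± 0.068 (SE, adjusted p = 0.194). Scd2, a stearoyl-CoA desaturase prominent in brain, had 86.5, 106 and 86.2 CPM in knockout-labelled libraries, against 74.1, 102 and 83.1 CPM in wild-type-labelled libraries, a log2 change of 0.11 ± 0.048 (SE, adjusted p = 0.170). Its paralogue Scd1 was far lower and uneven, at 3.24, 11.2 and 5.97 CPM in knockout-labelled libraries and 2.58, 13.8 and 4.34 CPM in wild-type-labelled libraries. Both groups peaked in library 2, and the log2 fold change was 0.042 ± 0.14 (SE, adjusted p = 0.910). Scd1 and Scd2 are similar enough that reads could be shared between them.

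**Figure D3:**
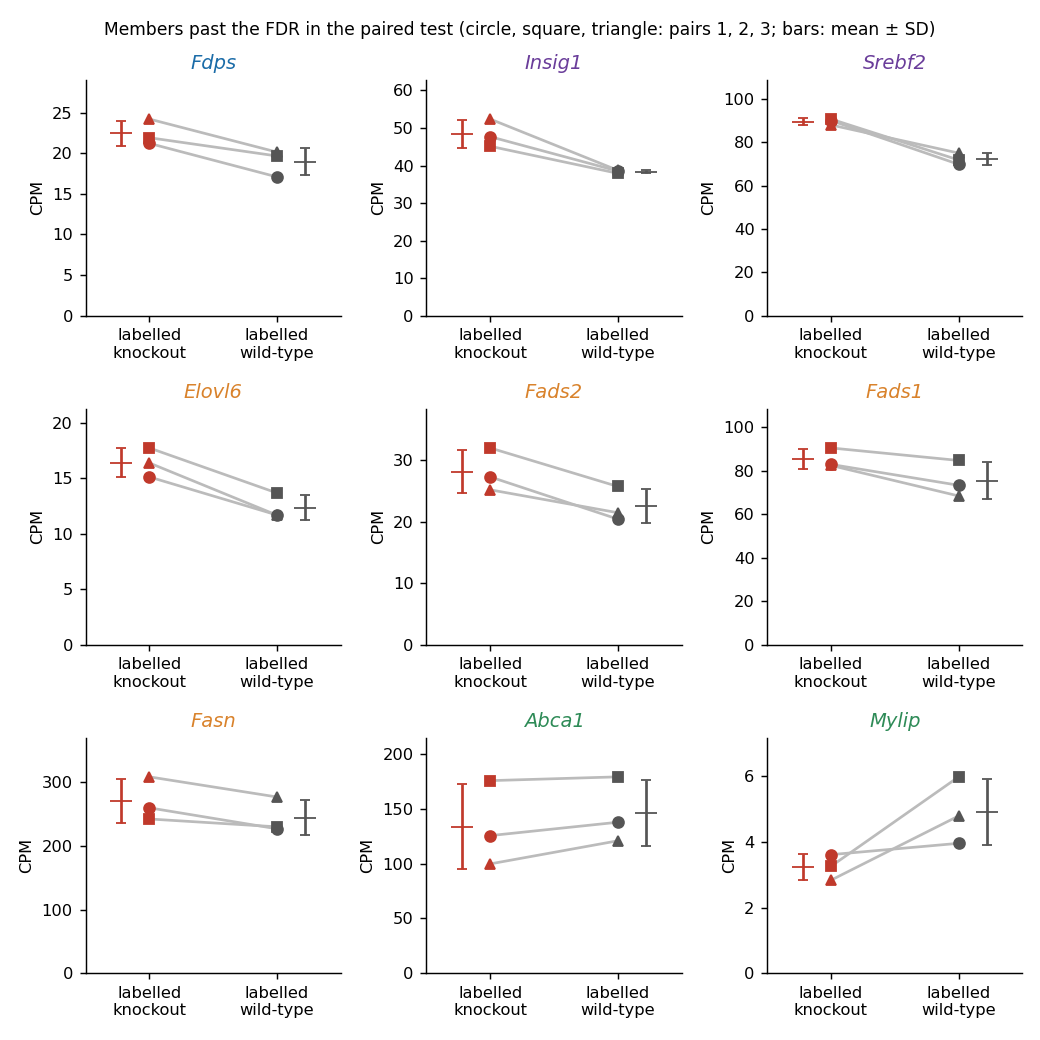
CPM in each library for the 9 members with an adjusted p under 0.05 in the paired test, with libraries labelled knockout on the left and libraries labelled wild-type on the right. Grey lines join same-numbered libraries, and bars at the sides are the mean ± SD of 3 libraries. The lines fall from knockout to wild-type in all 3 pairs for 7 genes and climb in all 3 pairs for Abca1 and Mylip.

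Of the LXR and efflux genes, Abca1 and Mylip fell. Abca1, which exports cholesterol to apolipoprotein A-I, had 125, 175 and 99.7 CPM in knockout-labelled libraries, against 138, 179 and 121 CPM in wild-type-labelled libraries. The groups overlapped widely because both peaked in library 2, yet each library labelled knockout was below its partner, and the log2 fold change was -0.14 ± 0.046 (SE), or 0.907-fold, with an adjusted p of 0.0445 in edgeR's paired test. Mylip had 3.62, 3.26 and 2.84 CPM in knockout-labelled libraries, against 3.96, 5.99 and 4.79 CPM in wild-type-labelled libraries. The groups did not overlap, and the log2 fold change was -0.58 ± 0.16 (SE), or 0.667-fold, with an adjusted p of 0.0167. Abca1 did not pass without pair 3 (adjusted p = 0.425) or with limma-voom (adjusted p = 0.0636), and Mylip did not pass without pair 2 (adjusted p = 0.310) or without pair 3 (adjusted p = 0.0635). With library size as the only scaling both passed, at -0.17 and -0.61, but that scaling moved the median of all genes down to -0.030.

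The receptors and the second exporter did not pass. Nr1h3, which encodes LXRα, was scarce, at 2.86, 3.58 and 2.20 CPM in knockout-labelled libraries against 3.58, 4.80 and 3.37 CPM in wild-type-labelled libraries. It was lower in 3 of 3 pairs, with a log2 change of -0.44 ± 0.17 (SE, adjusted p = 0.115). Nr1h2, which encodes LXRβ and whose promoter window holds the ETS letters 3 times, had 94.8, 82.4 and 82.9 CPM in knockout-labelled libraries and 84.8, 81.3 and 96.4 CPM in wild-type-labelled libraries. The log2 change was -0.0095 ± 0.055 (SE, adjusted p = 0.948). Abcg1, which exports cholesterol to high-density lipoprotein, had 118, 104 and 110.0 CPM in knockout-labelled libraries and 113, 98.7 and 116 CPM in wild-type-labelled libraries, a log2 change of 0.019 ± 0.046 (SE, adjusted p = 0.869). The exporters thus gave different values, -0.14 for Abca1 and 0.019 for Abcg1, and that difference was not tested. Abca1 and Fasn, which hold the same LXR letters, changed in opposite directions in the paired test.

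Levels were compared per length of exon, as RPKM (reads per kilobase of exon, scaled as the CPM). The most abundant members were Nr1h2, at 25.9 ± 2.09 RPKM in knockout-labelled libraries and 26.1 ± 2.35 RPKM in wild-type-labelled libraries, and Fasn, at 24.7 ± 3.13 and 22.3 ± 2.56 RPKM (SD, n = 3 each). The levels of these 2 genes did not differ from each other beyond their spread. Srebf1 followed at 19.9 ± 1.22 RPKM in knockout-labelled libraries and 18.1 ± 1.55 RPKM in wild-type-labelled libraries, above Srebf2 at 12.5 ± 0.197 and 10.05 ± 0.364 RPKM. The count per gene does not separate the isoforms of Srebf1. Cholesterol enzymes were lower, and Lss, lanosterol synthase, was the lowest of them by the mean of all 6 libraries. Lss, with 10787 exonic bases, had 0.721 ± 0.144 RPKM in knockout-labelled libraries and 0.681 ± 0.164 RPKM in wild-type-labelled libraries. That length joins all its annotated exons, and the rank rests on it. By CPM, Lss had means of 7.77 (knockout label) and 7.34 (wild-type label), above Idi1 at 3.08 and 2.21 and Tm7sf2 at 4.11 and 4.41. Idi1 had 0.878 ± 0.260 RPKM in knockout-labelled libraries and, below Lss, 0.630 ± 0.0304 RPKM in wild-type-labelled libraries. The highest was Hmgcs1, at 9.46 ± 0.880 and 9.15 ± 1.67 RPKM. Nr1h2 exceeded Nr1h3, at 1.15 ± 0.275 RPKM in knockout-labelled libraries and 1.56 ± 0.307 RPKM in wild-type-labelled libraries, and Scd2 exceeded Scd1, with no overlap between the members of either pair.

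**Figure D4:**
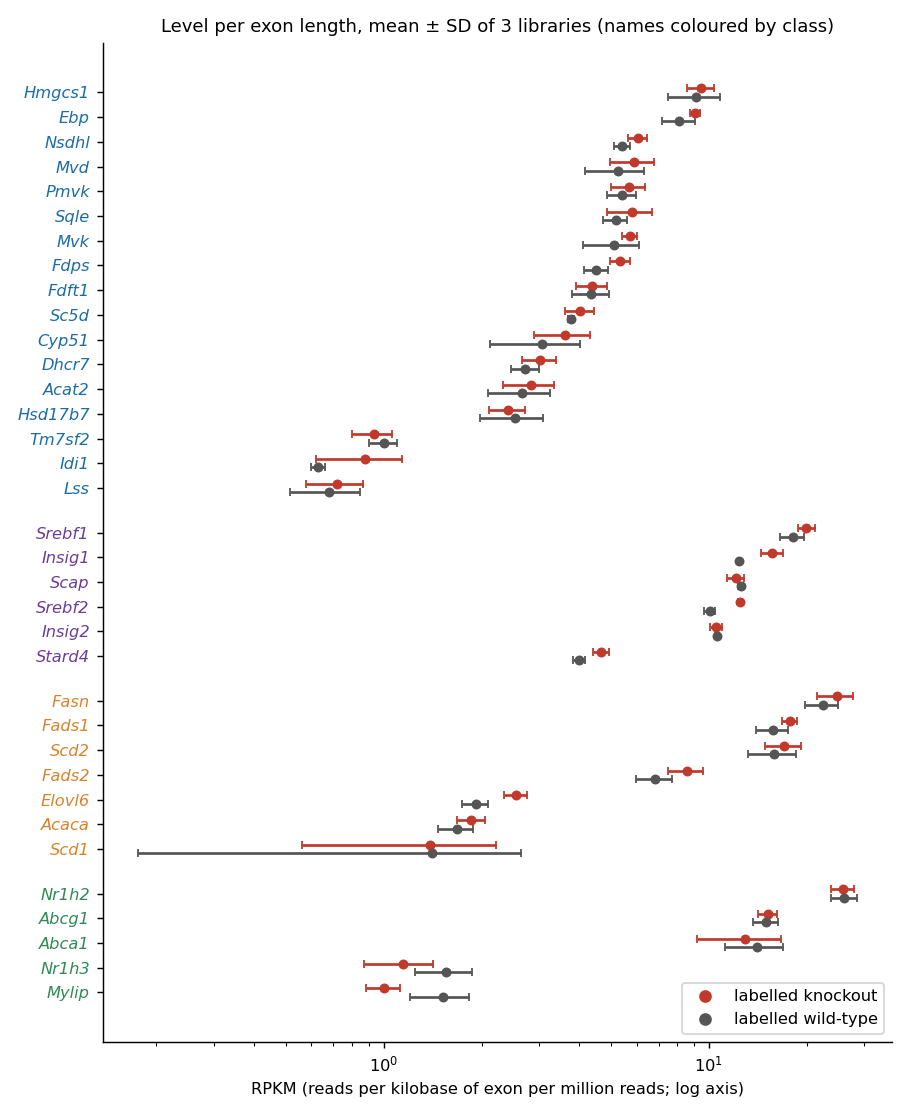
Level of each member in RPKM on a log axis, ordered by level within its class, with the libraries labelled knockout (red, upper) and those labelled wild-type (grey, lower) as mean ± SD of 3 libraries. Class colours of the names run from cholesterol synthesis (blue) through sterol sensing (purple) and fatty acids (orange) to LXR and efflux (green). Nr1h2 and Fasn lie near 25 RPKM and Lss and Idi1 under 1 RPKM.

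Several members differed more between replicate numbers than between labels. In both groups, 14 of the 35 members were highest in library 2, 6 in library 3 and 0 in library 1, and the remaining members peaked in different libraries in the 2 groups. The 14 included Scd1, Abca1, Cyp51, Hsd17b7, Hmgcs1 and Sqle. Averaged over the groups, the highest and lowest replicate numbers differed by 2.11 on the log2 scale for Scd1, 0.69 for Abca1 and 0.68 for Cyp51, but by 0.028 for Srebf2. Fibroblast markers also peaked in library 2 of both groups: the 10 markers summed to 131, 993 and 429 CPM in knockout-labelled libraries, against 187, 1396 and 464 CPM in wild-type-labelled libraries. Of the 7 markers tested, 1 rose and 2 fell in the paired test, against 4.81% and 4.01% of all genes. Lum and Dpt were at most 0.160 CPM in any library. Collagens made up most of the sum, and Col1a1 alone had 508 and 730 CPM in library 2 labelled knockout and wild-type. The peak was not particular to fibroblast markers. Of the mural markers, Cspg4 had 8.33, 51.8 and 4.69 CPM in knockout-labelled libraries, against 14.8, 81.8 and 4.49 CPM in wild-type-labelled libraries. Pdgfrb, Notch3 and Myh11 also peaked there in both groups, whereas Tagln, another mural marker, was lowest there. In such bulk samples, more cells of a type and more RNA per cell cannot be told apart. The part of fibroblast and mural transcripts in these levels was not tested.

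**Figure D5:**
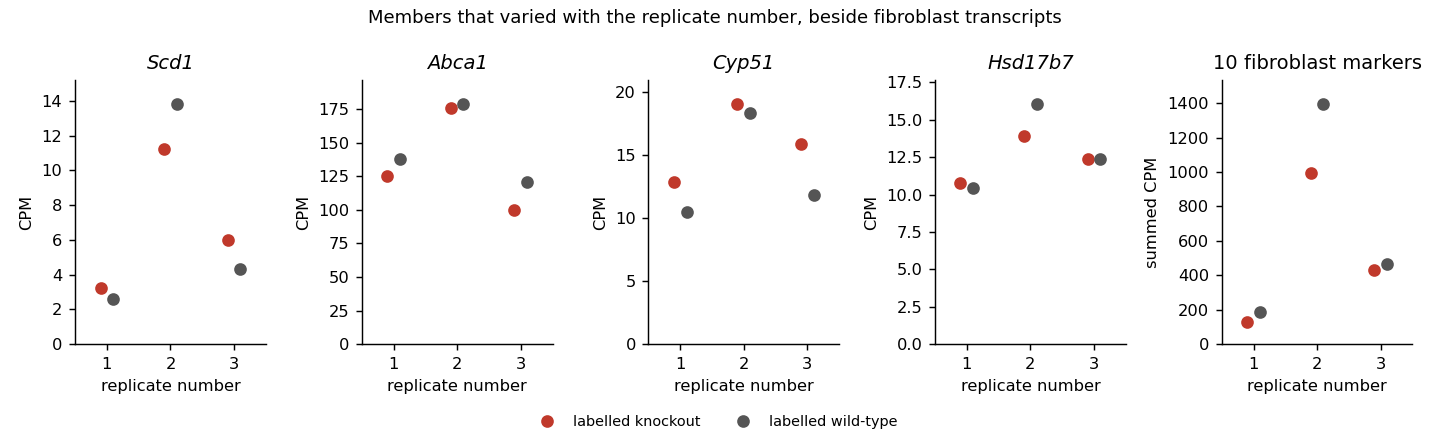
CPM of 4 members and the summed CPM of 10 fibroblast markers by replicate number, with libraries labelled knockout (red) left of those labelled wild-type (grey). All 5 panels peak at replicate number 2 in both groups, and Scd1 spans 2.58 to 13.8 CPM across the 6 libraries.

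Other transcripts moved with the label as well. The counts of markers here are to be read against 4.81% of all genes higher and 4.01% lower in the paired test. All 18 proliferation markers rose in that test. Their median change was 0.77 on the log2 scale, and they summed to 624, 708 and 906 CPM in knockout-labelled libraries, against 428, 430.0 and 568 CPM in wild-type-labelled libraries. Of 10 immediate early genes, which respond to handling and growth factors, 7 fell and 0 rose. They summed to 623, 573 and 658 CPM in knockout-labelled libraries, against 825, 737 and 858 CPM in wild-type-labelled libraries. Of 10 mural cell markers tested, 0 rose and 3 fell. All 11 listed summed to 1446, 1885 and 1895 CPM in knockout-labelled libraries, against 1427, 2255 and 1596 CPM in wild-type-labelled libraries. In pairs 1 and 3 this sum, most of it from Tagln, was thus higher with the knockout label. Pdgfrb and Cspg4, both among those that fell, were higher with that label in pair 3, by 0.15 and 0.064 on the log2 scale. Of 7 haematopoietic markers tested, 4 rose (Laptm5, Lcp1, Coro1a and Srgn) and 0 fell. The others tested did not share a direction, with log2 changes of -0.24 for Cd53, -0.099 for Cd68 and 0.34 for Aif1. Ptprc was at most 0.334 CPM in any library, and Tyrobp and Rac2 had no reads in any library. The 5 adipocyte markers had too few reads to be tested and summed to at most 0.160 CPM in knockout-labelled libraries and 0.334 CPM in wild-type-labelled libraries, with Plin1 and Lep at 0. The part of these transcripts in the sterol and fatty acid changes was not tested.

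A wider set of 76 genes of the same pathways, of which 72 were tested, was called about as often as genes at large. In the paired test 2 rose (2.78%, against 4.81% of all genes) and 3 fell (4.17%, against 4.01%), and the median was 0.025 on the log2 scale. None of the 8 isoprenoid and sterol branch enzymes and none of the 9 genes that process or degrade the sensing proteins passed. Among genes of uptake, storage and transfer, Scarb1, a receptor for high-density lipoprotein, had 118, 110.2 and 114 CPM in knockout-labelled libraries, against 102, 93.3 and 108 CPM in wild-type-labelled libraries, and rose by 0.18 ± 0.046 on the log2 scale (SE, adjusted p = 0.00780, edgeR). Tspo, an outer mitochondrial membrane protein, rose by 0.18 ± 0.049 (adjusted p = 0.0131).

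The 3 falls were in Ch25h, Hacd3 and Agpat2. Ch25h, the hydroxylase that makes an oxysterol able to activate LXR and to hold back SREBP, had 25.5, 18.9 and 38.1 CPM in knockout-labelled libraries, against 32.2, 26.5 and 41.8 CPM in wild-type-labelled libraries. The groups overlapped, but each library labelled knockout was below its partner, and the log2 fold change was -0.30 ± 0.069 (SE, adjusted p = 0.00222, edgeR). Hacd3, a dehydratase of fatty acid elongation, had 62.1, 65.5 and 64.8 CPM in knockout-labelled libraries, against 75.2, 78.5 and 68.4 CPM in wild-type-labelled libraries, and fell by 0.21 on the log2 scale (adjusted p = 0.00573). Agpat2, an acyltransferase of glycerolipid synthesis, fell by 0.42 ± 0.13 (adjusted p = 0.0262), to 6.10 ± 0.842 CPM in knockout-labelled libraries, against 8.13 ± 0.943 CPM in wild-type-labelled libraries (SD, n = 3). Without pair 2, or with DESeq2, none of these 5 genes passed, and Ch25h had adjusted p values of 0.115 and 0.106. Gramd1c, Thrsp, Cd36 and Rxrg had too few reads to be tested.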

How the data were processed

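Polyadenylated RNA of 6 sorted endothelial samples was sequenced, 3 with the Fli-1 knockout label and 3 with the wild-type label. The authors deposited raw read counts per gene symbol, not normalised. Per the submitters' processing notes, FastQC 0.11.8, Trim Galore 0.6.4, STAR 2.6.1d and Subread 1.6.4 with featureCounts were used, with builds mm10 and GRCm38. For the annotation, the strand setting and multi-mapped reads, the setting is not given in the sources used here. Per the labels' protocols, a stranded or a non-stranded TruSeq kit was used, without saying for which sample.

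Genes passing filterByExpr (12753 of 24421) were tested with edgeR 4.0.16 (R 4.3.3), using TMM factors of 0.983 to 1.02, its robust quasi-likelihood test and, over all genes tested, the adjustment of Benjamini and Hochberg, with a false discovery rate of 0.05 as the limit. CPM used the totals of the kept genes times these factors. The group test had no block and the paired test added the replicate number, leaving 4 and 2 residual degrees of freedom. Same-numbered libraries deviated together from their group means (correlations of 0.797, 0.879 and 0.690), so the numbers were taken to pair them, from the data and not from the labels. Centring on group means pushes the values between different numbers down. Every 2 of the 6 libraries differed by more than sampling noise, at 5.44 to 40.7 chi-square units per degree of freedom. Exact tests of 3 against 3 libraries or of 3 pairs cannot go below p = 0.1 or 0.25, so single genes were tested only in fits across all genes.

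Exon lengths and positions came from GENCODE M21 (GRCm38), to which 23376 symbols (95.7%) matched. Alternatives used DESeq2 1.42.0, limma-voom (limma 3.58.1), other scalings, no filter and left-out libraries. Both edgeR tests and the blocked DESeq2 and limma-voom tests were tested on a single simulated data set. There the blocked edgeR and limma-voom tests made more false calls than the nominal rate, and the other tests did not. A single data set does not measure these rates. The group test called almost no genes in the real data, so for it a lack of false calls says little. The members, lists and tests were chosen with earlier results of these data known. Full values were given for members called in the paired test and for up to 3 more per class by unadjusted p; Hmgcs1 and Insig2 were added after their values were seen.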

Additional observations from a re-analysis of the deposited data

How the results depend on the processing

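The replicate block decided the calls: without it 0 members were higher and 0 lower, 0 and 1 genes in all, and 0 of the other pathway genes, and with it the group comparison gave 7 and 2 members and 613 and 511 genes. DESeq2 without the block called 1 member and 12 genes higher and 7 genes lower, and limma-voom called 0 genes lower. Leaving out 1 library without the block gave 0 members in either direction, 0 genes higher and 0 to 1 lower.

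In the paired test DESeq2 called 2 members higher and 0 lower, 262 and 111 genes, and 0 other pathway genes in either direction. At a false discovery rate of 0.01 the members were 4 and 0, all genes 388 and 259, and the other pathway genes 1 and 2. A minimum of 1.5-fold gave 0 and 0 members, 22 and 5 genes and 0 other pathway genes. limma-voom gave 1 member lower. Leaving out each pair gave 5 to 9 members higher and 0 to 2 lower, 339 to 603 genes higher and 205 to 600 lower, and 0 to 4 other pathway genes in each direction. The median of the cholesterol enzymes was then 0.11 to 0.12, of sterol sensing 0.15 to 0.22, of fatty acid synthesis 0.14 to 0.22 and of LXR and efflux -0.20 to -0.079. With library size alone, 39.1% of all calls were higher, against 54.5% with TMM, and the median of all genes moved to -0.030.

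The 9 called members kept their direction under every alternative run. Each had the same sign in every pair, so leaving out a pair could hardly turn it, and this is no separate support. Directions turned for members that did not pass. Leaving out each pair gave -0.089 to 0.16 for Hmgcs1, -0.0099 to 0.12 for Pmvk, -0.057 to 0.066 for Fdft1, -0.28 to 0.039 for Tm7sf2, -0.11 to 0.021 for Hsd17b7, -0.11 to 0.0080 for Scap, -0.032 to 0.029 for Insig2, -0.13 to 0.40 for Scd1, -0.0070 to 0.066 for Abcg1 and -0.10 to 0.093 for Nr1h2. Library size alone gave -0.013 for Fdft1 and -0.0071 for Abcg1, and Scd1 was at -0.022 with limma-voom and -0.025 with no replicate block. The cause was not tested. Idi1, Tm7sf2, Nr1h3 and Mylip had under 6 CPM in every library, so counting error is largest for them.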
